A study of Mus musculus with 12 samples.

Results

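The genes described here encode 8 cell-surface proteins with which leukocytes leave the bone marrow (BM) and attach to vessels and tissues, 8 of the 21754 genes in the count table. They were chosen by name, with earlier results of these data known: the selectin ligand Selplg, the integrin alpha chains Itga4 and Itgal, the integrin beta chains Itgb1, Itgb2 and Itgb7, and the sphingosine 1-phosphate (S1P) receptors S1pr1 and S1pr4. RNA of 4 dendritic cell (DC) populations from the BM of C57BL/6 mice was sequenced in bulk, with 3 libraries per population and 12 in all. All populations were sorted for CD11c after cells with T, B, NK, neutrophil and erythroid surface markers had been depleted. Pre-cDCs, the precursors of conventional DCs, lacked Siglec-H. The lo-lo cells carried Siglec-H with low CCR9 and low B220, lo-hi cells carried Siglec-H with low CCR9 and high B220, and plasmacytoid DCs (pDCs) were high for both CCR9 and B220. The mice were untreated adults without a genetic change, and the age and sex behind each library were not given.

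Cells in the blood slow down when selectins bind sugar-decorated ligands, of which PSGL-1, the product of Selplg, is the main one on leukocytes. Integrins, each a pair of an alpha and a beta chain, then hold the cell firmly: alpha4 pairs with beta1 to bind VCAM-1 and fibronectin or with beta7 to bind MAdCAM-1 in the gut, and alphaL pairs with beta2 to form LFA-1, which binds ICAMs. Alpha4beta1 also holds progenitors to the marrow stroma. S1P, which is abundant in blood and scarce in tissue, draws cells with S1P receptors out of tissues, and S1pr4 is a receptor largely of blood cells.

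The populations are named here by a match of the wells and not by the deposited cell type labels. Within each library the order of 28 transcription factor genes, in 378 gene pairs, was compared with the order of the same genes in the per-sample values behind the heat map of the publication. Each of the 12 heat map samples had 1 well with 0 pairs out of order, these were 12 different wells, and each other well had at least 7 pairs out of order. The matched population was the labelled one in 4 wells and another one in 8 wells, and none of the 8 adhesion and egress genes was among the 28. Grouped by the labels instead, 0 of 15293 genes differed among the populations in edgeR's quasi-likelihood test at the adjusted p cutoff of 0.01, with 166 at an unadjusted p under 0.05, and 0 of the 7 tested members differed in any comparison. Every population name below therefore rests on the match.

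**Figure D1:**
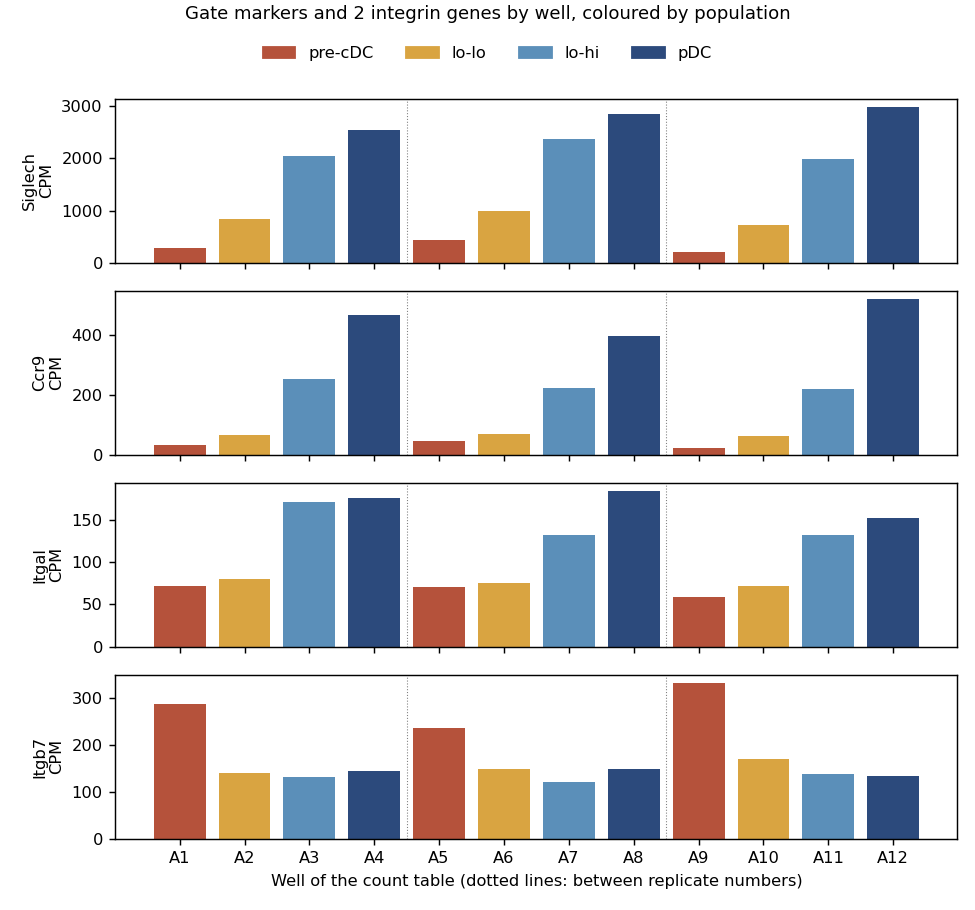
Levels of Siglech, Ccr9, Itgal and Itgb7 in the 12 wells as CPM (counts scaled to a common library size, with TMM), coloured by matched population, with dotted lines between replicate numbers. Siglech and Ccr9, genes of the sorting gates, climb from pre-cDC to pDC within each set of 4 wells, Itgal is higher in lo-hi and pDC, and Itgb7 is highest in the 3 pre-cDC libraries.

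Total counts ran from 1801463 to 5995971 per library with a median of 3087455. All 9 pDC markers were higher in pDCs than in pre-cDCs, and 7 of 9 cDC markers were lower while Clec10a was higher. Of all genes tested, 11.4% were higher and 10.4% lower in this comparison. The pDC list includes Siglech and Ccr9 of the sorting gates. Both lists include transcription factor genes, the kind of gene used for the match, so these counts are no separate check of the population names. Summed, the pDC markers still held 1697 to 2649 CPM in pre-cDCs, against 11650 to 12300 CPM in pDCs. Siglech gave 275.6, 442.5 and 206 CPM in pre-cDC replicates 1, 2 and 3, although these cells were sorted as lacking Siglec-H. The part of this RNA in the pre-cDC values was not tested. Xist was at 26.6 to 58.4 CPM in the 4 libraries of replicate 3 and at 218 CPM or more in the other libraries, and Ddx3y went the opposite way, so that sex differed between replicate numbers and not between populations. Summed neutrophil markers (9 genes) reached 3265 to 20820 CPM and summed erythroid markers (7 genes) 4690 to 18420 CPM over the libraries, with no gene of either list at 0 in any population. Summed platelet markers (6 genes) ran from 23.63 to 110.5 CPM in pre-cDCs, 19.19 to 150.2 in lo-lo, 38.26 to 71.3 in lo-hi cells and 12.57 to 24.85 in pDCs. None of these 6 was at 0 in any population. None of the genes on these lists passed the test between any pair of populations, and the part of such RNA in the values below was not tested. In bulk RNA, fewer cells of a kind and less RNA per cell cannot be told apart.

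The RefSeq promoter table used here held 4 of the 8 genes, and those of the 3 integrin genes among them are shown because these genes moved in different directions. Each run is the 250 bases before the RefSeq start site in GRCm38.p6, written 5′ to 3′ on the gene's strand. Capitals mark matches on either strand to CAGNTG (an E-box core bound by E proteins), GAGGAA (an ETS core), TGTGGT (a RUNX core) or CACCC (a KLF box). Neighbouring matches to TGTGGT and CACCC overlap in Itga4.
Itga4, chr2:79255176-79255425, plus strand: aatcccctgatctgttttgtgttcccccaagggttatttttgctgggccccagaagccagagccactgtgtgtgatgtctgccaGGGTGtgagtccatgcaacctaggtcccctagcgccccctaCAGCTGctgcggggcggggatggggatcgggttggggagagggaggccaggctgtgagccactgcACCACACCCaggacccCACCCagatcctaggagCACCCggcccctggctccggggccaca
Itgb7, chr15:102231936-102232185, minus strand: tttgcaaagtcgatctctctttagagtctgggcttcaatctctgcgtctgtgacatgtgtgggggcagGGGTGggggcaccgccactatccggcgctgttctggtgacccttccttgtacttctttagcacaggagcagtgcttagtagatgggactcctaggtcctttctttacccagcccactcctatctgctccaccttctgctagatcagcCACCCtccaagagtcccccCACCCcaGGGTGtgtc
Itgb1, chr8:128685404-128685653, plus strand: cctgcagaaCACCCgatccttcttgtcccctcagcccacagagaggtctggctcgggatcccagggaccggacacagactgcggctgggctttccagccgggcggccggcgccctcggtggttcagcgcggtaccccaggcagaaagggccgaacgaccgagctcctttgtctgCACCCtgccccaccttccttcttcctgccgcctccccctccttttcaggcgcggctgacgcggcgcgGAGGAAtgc
CACCC matched 4 times before Itga4, 4 times before Itgb7 and 2 times before Itgb1, and 52.0% of all 32851 promoter windows of this length held it. Among these 3 windows the single CAGNTG match lay before Itga4 (44.8% of windows held one), as did the single TGTGGT match (14.0% of windows). The single GAGGAA match among them lay before Itgb1 (23.3% of windows). The window of S1pr4, which is not shown, also held 1 CAGNTG match, and 1 CACCC match. These matches are letters in a window and not measured binding sites.

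Of the 8 genes, 7 passed the filter of a mean count of 1 and were tested. Among the 4 populations, 4 of these 7 differed (Itgal, Itgb7, Itgb2 and Itga4), while 19.9% of all genes tested did. The integrin chains differed between the populations in different ways. Itgal and Itga4 were higher in pDCs than in pre-cDCs and lo-lo cells, as was Itgal in lo-hi cells. Itgb7 was higher in pre-cDCs than in each other population, and Itgb1 than in pDCs only. Itgb2 was lower in lo-lo cells than in pre-cDCs and pDCs. The calls of Itga4 and Itgb1, and that of Itgb2 between pDCs and lo-lo cells, were lost in some fits without 1 library. The order in which the populations are listed is not, as a whole, a line of descent. In the publication, cultured pre-cDCs gave cDCs, and lo-lo cells gave pDCs, cDCs and cells of lo-hi phenotype. Cultured lo-hi cells gave mainly pDCs there. The publication proposes a path from lo-lo through lo-hi cells to pDCs, and pre-cDCs are not on it. Rise, fall and step below compare populations. Selplg and S1pr4 did not pass the test, and S1pr1 was at the limit of detection throughout. All values are CPM scaled by TMM, and since only transcript ends were sequenced, levels are compared between populations and never between genes.

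**Figure D2:**
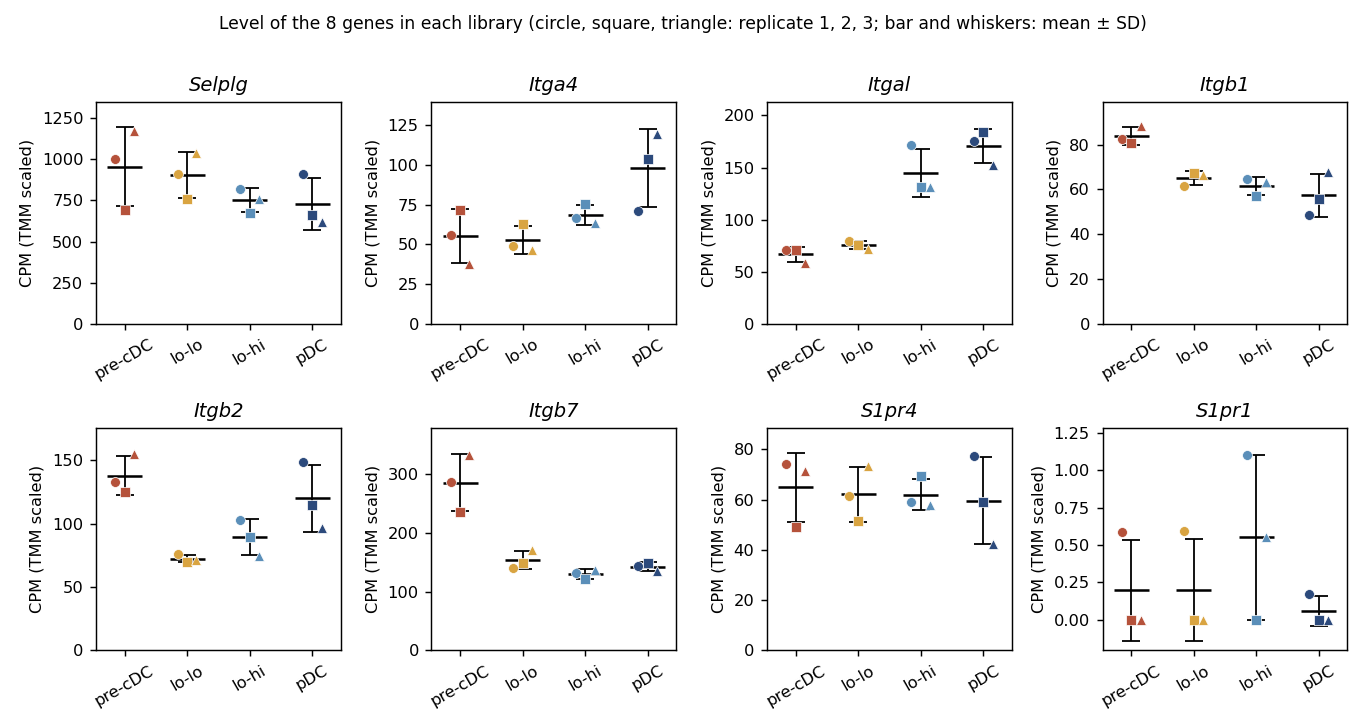
CPM of each of the 8 genes in every library of the 4 populations, with the mean and SD of 3 libraries; circle, square and triangle are replicates 1, 2 and 3, and each panel has its own axis. Itgal separates lo-hi and pDC from lo-lo and pre-cDC, Itgb7 separates pre-cDC from the rest, and S1pr1 stays near 1 CPM or below.

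Itgal (alphaL, ENSMUSG00000030830, chr7:127296260-127335138 on the plus strand) showed the clearest rise. It measured 71.4, 70.9 and 58.4 CPM in replicates 1, 2 and 3 of the pre-cDCs and 79.7, 75.7 and 71.4 CPM in those of the lo-lo cells. The lo-hi libraries had 171, 132 and 132 CPM, and the pDC libraries had 176, 184 and 153 CPM. Every lo-hi and pDC library was thus above every lo-lo and pre-cDC library. The step fell between lo-lo and lo-hi cells, with a log2 fold change of 0.95 ± 0.16 (SE, adjusted p = 0.000196, edgeR). Summed B cell markers (8 genes, none at 0 in a whole population) ran from 70.3 to 99.2 CPM in lo-lo and from 112 to 153 CPM in lo-hi cells, with 1 of the 8, Cd79b, higher (log2 fold change 0.75, adjusted p = 0.00717 in edgeR), and their part in the step was not tested. Between pre-cDCs and pDCs the mean rose from 66.9 ± 7.35 to 171 ± 16.4 CPM (SD, n = 3 each), a 2.56-fold difference with an adjusted p of 2.21e-07 in edgeR. Neither neighbouring pair on each side of the step passed the test: lo-lo against pre-cDC had a log2 fold change of 0.18 (95% interval -0.15 to 0.51) and pDC against lo-hi 0.23 (-0.09 to 0.55). Each of the 4 calls of Itgal held when any 1 of the 12 libraries was left out.

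Itga4 (alpha4, ENSMUSG00000027009, chr2:79255426-79333123 on the plus strand) was also highest in pDCs, with a wider spread. The pre-cDC libraries held 55.6, 71.8 and 37.8 CPM, and the lo-lo libraries 49.0, 63.1 and 46.7 CPM. The lo-hi libraries reached 66.7, 75.5 and 63.3 CPM and the pDC libraries 71.2, 104 and 120 CPM. The lowest pDC library thus lay inside the range of pre-cDC and lo-hi cells and above all lo-lo libraries. The pDC level was higher than that of pre-cDCs by a log2 fold change of 0.83 ± 0.21 (adjusted p = 0.00355, edgeR) and than that of lo-lo cells by 0.88 ± 0.21 (adjusted p = 0.00289, edgeR). Each of these calls was lost in 4 of the 12 fits that left out 1 library. For the first they were those without pre-cDC replicate 1 or 3 or pDC replicate 2 or 3, where the adjusted p reached 0.0377, and for the second those without lo-lo replicate 1 or 3 or pDC replicate 2 or 3, where it reached 0.0293. Against lo-hi cells the difference was 0.51 (95% interval 0.08 to 0.94, adjusted p = 0.315 in edgeR). Cerkl overlaps Itga4 on the opposite strand, and whether the counting used strand was not given; Cerkl itself held 9 to 28 counts per library.

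Itgb7 (beta7, ENSMUSG00000001281, chr15:102215995-102231944 on the minus strand), the partner of alpha4 in gut homing, went the other way. Its level was 286, 236 and 332 CPM in the pre-cDC libraries and 140, 149 and 171 CPM in the lo-lo libraries. The lo-hi libraries had 132, 121 and 137 CPM and the pDC libraries 144, 149 and 134 CPM. The 3 pre-cDC libraries stood above the other 9 without overlap. The lower level was present in lo-lo cells, with a log2 fold change against pre-cDCs of -0.89 ± 0.15 (adjusted p = 0.000331, edgeR). In lo-hi cells the log2 fold change against pre-cDCs was -1.13 ± 0.15 (adjusted p = 4.4e-06, edgeR). From pre-cDC to pDC the mean fell from 285 ± 48.2 to 142 ± 7.38 CPM (SD, n = 3 each), with a 95% interval of the log2 fold change of -1.31 to -0.69 and an adjusted p of 9.81e-06 in edgeR. Among the other populations lo-hi differed from lo-lo cells by -0.24 (95% interval -0.55 to 0.08) and pDCs from lo-hi cells by 0.13 (-0.18 to 0.45). All 3 calls of Itgb7 held without any 1 library.

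Itgb2 (beta2, ENSMUSG00000000290, chr10:77530252-77565708 on the plus strand), the partner of alphaL and of the myeloid alpha chains, was lowest in lo-lo cells. It measured 133, 125 and 155 CPM in pre-cDCs, 75.8, 69.9 and 71.7 CPM in lo-lo cells, 103, 89.4 and 74.9 CPM in lo-hi cells and 149, 115 and 96.7 CPM in pDCs. The lo-lo libraries lay below all pre-cDC and pDC libraries, and the lo-hi range began inside the lo-lo range. The level was lower in lo-lo cells than in pre-cDCs by 0.93 ± 0.17 on the log2 scale (adjusted p = 0.000911, edgeR). This call held in every fit without 1 library. In pDCs it was higher than in lo-lo cells by 0.74 ± 0.17 (adjusted p = 0.00233, edgeR). That call was lost in 5 of 12 fits, those without any 1 of the lo-lo libraries or without pDC replicate 1 or 2, and its adjusted p reached 0.0399. Between lo-hi cells and pre-cDCs the log2 fold change of -0.62 lay just outside the cutoff (adjusted p = 0.0105, edgeR). It passed in 6 of 8 other settings: with the replicate number as a block in the fit, without a filter on low counts, in DESeq2, with RLE size factors, with edgeR's own filter and at a cutoff of 0.05. Its adjusted p over the 8 settings ran from 0.00216 with the block to 0.0163 without scaling factors. It also passed in 3 of the 12 fits without 1 library (pre-cDC replicate 2, pDC replicate 1 or pDC replicate 3). Summed monocyte markers (7 genes) ran from 4574 to 4911 CPM in pre-cDCs and from 2784 to 3606 CPM in lo-lo cells, with 4 of the 7 lower in lo-lo cells. In pDCs they ran from 3082 to 4069 CPM, with 6 of the 7 lower than in pre-cDCs and a median log2 fold change of -2.13. None of the 7 was at 0 in any population, and their part in the falls of Itgb2, Itgb7 and Itgb1 from pre-cDCs was not tested.

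Itgb1 (beta1, ENSMUSG00000025809, chr8:128685654-128733200 on the plus strand), the widely used partner of alpha4, had a narrow range. Levels were 82.5, 80.8 and 88.1 CPM in pre-cDCs, 61.4, 67.2 and 66.3 CPM in lo-lo cells, 64.5, 56.9 and 63.3 CPM in lo-hi cells and 48.7, 55.6 and 67.6 CPM in pDCs. The pre-cDC libraries were above all others, but the test among the 4 populations was not passed (adjusted p = 0.033, edgeR). Between pDCs and pre-cDCs the log2 fold change of -0.56 ± 0.16 passed with an adjusted p of 0.00738 in edgeR. This call did not hold in 5 of the 12 fits without 1 library (pre-cDC replicate 1 or 3, lo-hi replicate 3, pDC replicate 1 or 2), where the adjusted p reached 0.0267.

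Selplg (ENSMUSG00000048163, chr5:113818536-113832644 on the minus strand) was expressed in all populations. The libraries gave 1000, 693 and 1168 CPM in pre-cDCs, 908, 760 and 1038 CPM in lo-lo cells, 820, 676 and 760 CPM in lo-hi cells and 907, 660 and 617 CPM in pDCs. The 4 ranges overlapped. The mean was 954 ± 241 CPM in pre-cDCs, 902 ± 139 in lo-lo cells, 752 ± 72.5 in lo-hi cells and 728 ± 157 in pDCs (SD, n = 3 each), and no neighbours in that order differed beyond their spread. From pre-cDC to pDC the log2 fold change was -0.39 (95% interval -0.76 to -0.02, adjusted p = 0.104 in edgeR), and without pre-cDC replicate 2, the lowest of its group, the adjusted p was 0.00542.

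S1pr4 (ENSMUSG00000044199, chr10:81497747-81500132 on the minus strand) was present at like mean levels in all populations. It gave 74.0, 49.1 and 71.6 CPM in pre-cDCs, 61.4, 51.5 and 73.4 CPM in lo-lo cells, 58.9, 69.3 and 57.8 CPM in lo-hi cells and 77.3, 59.0 and 42.5 CPM in pDCs. The highest population mean was 1.09 times the lowest, and the spread inside each population exceeded the differences between them (adjusted p = 0.973, edgeR). The interval of the log2 fold change from pre-cDC to pDC was -0.53 to 0.30, so that a modest change in either direction was not detectable with 3 libraries.

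S1pr1 (ENSMUSG00000045092, chr3:115710433-115715072 on the minus strand), the receptor by which lymphocytes leave lymphoid organs, had 11 counts in all 12 libraries together. There were 2, 0 and 0 counts in pre-cDCs, 2, 0 and 0 in lo-lo cells, 5, 0 and 1 in lo-hi cells and 1, 0 and 0 in pDCs. In 11 of 12 libraries the count was at or under 3, which corresponds to between 0.511 and 1.65 CPM depending on depth, so no difference between populations was detectable and no fold change is given. These limits cover counting error only.

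**Figure D3:**
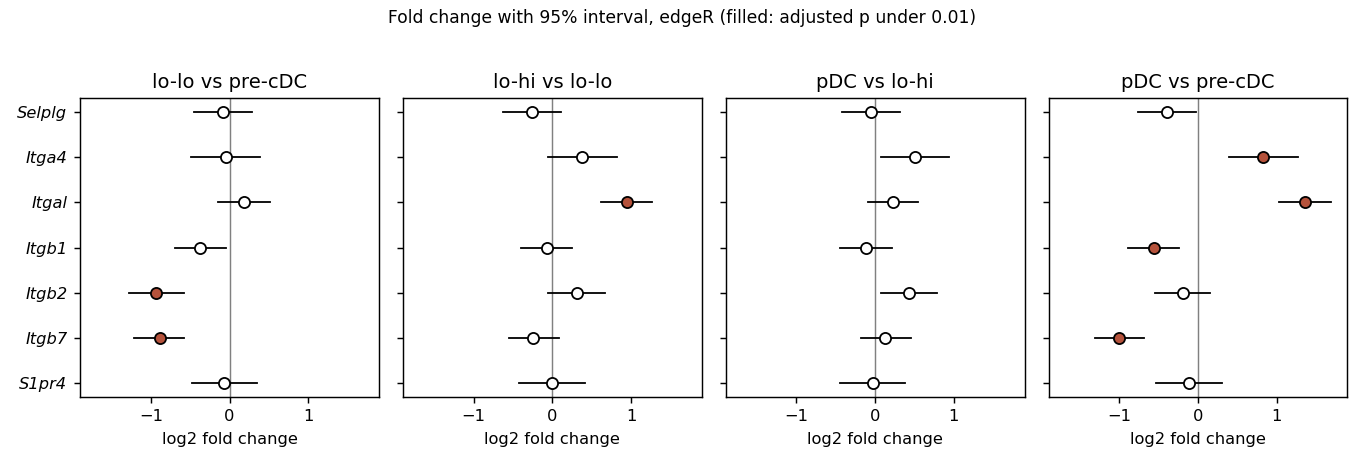
Log2 fold change of the 7 tested genes with its 95% interval in 4 comparisons, from the edgeR fit of all 12 libraries; filled points passed the adjusted p cutoff of 0.01. Itgb2 and Itgb7 are lower in the lo-lo vs pre-cDC panel, Itgal is higher in the lo-hi vs lo-lo panel, and no point is filled between pDC and lo-hi.

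Counted by comparison, the members called differed. Between lo-lo cells and pre-cDCs 2 of 7 passed (Itgb2 and Itgb7, both lower), beside 3.16% of all genes tested. Between lo-hi and lo-lo cells 1 of 7 passed (Itgal, higher), beside 5.17% of all genes, of which 2.33% were higher and 2.83% lower. Between pDCs and lo-hi cells 0 of 7 passed in edgeR and in DESeq2, beside 0.961% of all genes. The wider comparisons called 4 of 7 between pDCs and pre-cDCs (21.7% of all genes, 11.4% higher and 10.4% lower), 3 of 7 between pDCs and lo-lo cells (13.8%) and 2 of 7 between lo-hi cells and pre-cDCs (13.1%). The first of these counts fell to 2 without pre-cDC replicate 1 or 3 or pDC replicate 2, rose to 5 without pre-cDC replicate 2, and was 2 when the 6 libraries compared were fitted alone. The second fell to 1 without lo-lo replicate 1 or 3 or pDC replicate 2. Comparisons that share a population share its libraries.

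Because alpha4 takes either beta1 or beta7, and because beta1 and beta2 are carried widely by leukocytes, counts of the beta chains were also set against each other within each library, which needs no scaling between libraries. The log2 ratio of Itgb7 to Itgb1 was 1.79, 1.54 and 1.91 in pre-cDCs, 1.19, 1.15 and 1.36 in lo-lo cells, 1.03, 1.09 and 1.11 in lo-hi cells and 1.56, 1.42 and 0.99 in pDCs. Pre-cDC replicate 2 and pDC replicate 1 overlapped, while the pre-cDC ratios were above all lo-lo and lo-hi ratios. An exact permutation test over all 369600 assignments gave p = 0.0196 (0.0396 adjusted over 3 ratios). For Itgb2 to Itgb1 the population means were 0.71 ± 0.09 in pre-cDCs, 0.16 ± 0.13 in lo-lo, 0.52 ± 0.25 in lo-hi and 1.06 ± 0.55 in pDCs (SD, n = 3 each), with an exact permutation p of 0.0264 (0.0396 adjusted). Neither ratio passed 0.05 with permutation within replicate numbers (both 0.0755 adjusted, exact). Without 1 library, the first kept its call in 2 of 12 tests (those without pDC replicate 1 or 3) and the second in 1 of 12 (without pDC replicate 3). The third ratio, S1pr4 to S1pr1, rests on the few S1pr1 counts and is void as a measure of balance (exact permutation p = 0.401).

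**Figure D4:**
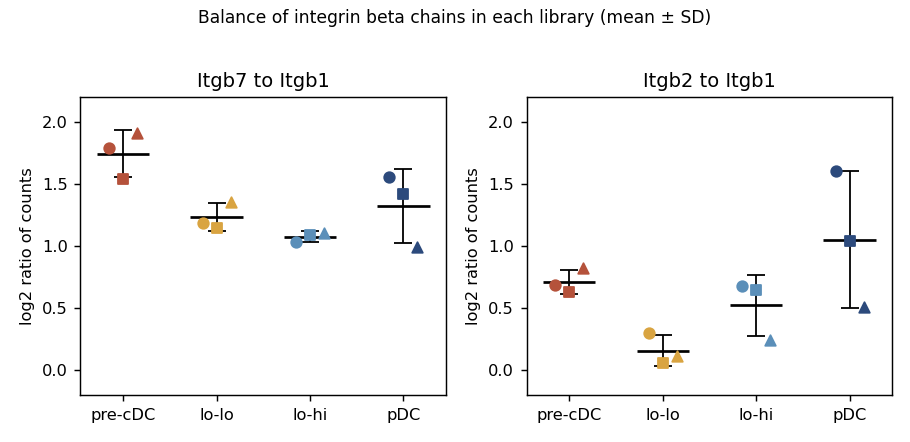
Log2 ratio of the counts of 2 beta chains within each library, by population, with the mean and SD of 3 libraries; circle, square and triangle are replicates 1, 2 and 3. The pre-cDC libraries have the highest mean ratio of Itgb7 to Itgb1, and the pDC libraries spread from 0.51 to 1.61 in the ratio of Itgb2 to Itgb1.

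A further ratio, chosen after the values were seen and given without a test, set Itgal against Itgb2, the chains of LFA-1. Counts of Itgal per count of Itgb2 ran from 0.376 to 0.565 in pre-cDCs, from 0.997 to 1.08 in lo-lo cells, from 1.47 to 1.76 in lo-hi cells and from 1.18 to 1.61 in pDCs. The first 3 ranges did not overlap, and the last lay partly inside the third. The size of such a ratio is not one of proteins or of transcripts, since it also depends on how well each transcript end was captured.

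Around these genes stand the enzymes and partners that make them work, counted here in pDCs against pre-cDCs. In this comparison 11.4% of all genes tested were higher and 10.4% lower, and each count below stands beside those shares. In it 6 of the 7 monocyte markers (Ccr2 is one) and 7 of the 9 cDC markers were lower too, and their part in the falls of Fut7, Itgam, Fn1, Ccr2, Cx3cr1 and the other genes below was not tested. Of the selectin list (selectins, their ligand scaffolds and the enzymes that decorate them), 3 of 14 tested genes were higher and 3 lower, with a median log2 fold change of -0.02 beside 0.05 over all genes. Fut7, the fucosyltransferase that completes the selectin-binding sugar on PSGL-1, fell from 127, 80.8 and 135 CPM in pre-cDCs through 57.8, 71.6 and 76.3 CPM in lo-lo cells and 7.95, 15.5 and 22.0 CPM in lo-hi cells to 6.64, 10.4 and 6.07 CPM in pDCs. No pre-cDC library overlapped any other population, and the log2 fold change from pre-cDC to pDC was -3.90 ± 0.30 (adjusted p = 1.36e-08, edgeR), whereas that of Selplg did not pass; the difference between these 2 genes was not tested. Among the other sugar enzymes the sialyltransferase gene St3gal6 was higher in pDCs (log2 fold change 2.67), as was St3gal3 (0.96), and St3gal4 was lower (-1.04). Cd44, which can also carry selectin ligands, rose by 1.20 on the log2 scale, while Cd24a fell by 1.52.

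Of the other integrin chains, 1 of 13 tested was higher and 4 were lower in pDCs, with a median of -0.94. Itgad (alphaD), a partner of beta2, was higher by a log2 fold change of 2.71, from 1.68 to 11.4 CPM. The pre-cDC level of Itgad rested on few counts, 7, 4 and 3 in replicates 1, 2 and 3. Itga6 (alpha6, a laminin receptor chain) was lower with a log2 fold change of -2.13 and Itgam (alphaM, of the complement receptor Mac-1) with -1.96. Itgax (CD11c, on which the cells were sorted) fell from 58.2 to 29.6 CPM. Itgax was highest in lo-lo cells, at 95.2 to 112 CPM against 56.0 to 62.6 in pre-cDCs, the population in which its partner Itgb2 was lowest. Of the genes that regulate integrin activation, in either direction, or tie integrins to actin, 6 of 21 were higher and 4 lower with a median of 0.02. Fyb (the adaptor ADAP) was higher by 2.52, Cyth1 by 1.11 and Rap1a by 0.85, while the actin crosslinker gene Flna was lower by -2.27, Rap1b by -0.71 and Itgb1bp1 by -0.70.

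Of the other S1P receptors and the enzymes that make or break S1P, 1 of 12 was higher and 3 were lower, with a median of -0.94. S1pr3 held 20, 13 and 19 counts in pre-cDCs, 25, 19 and 38 in lo-lo cells, 12, 1 and 5 in lo-hi cells and 1 in each pDC library. The pDC libraries were thus near 0 (log2 fold change -4.36 ± 0.54 from pre-cDC to pDC, adjusted p = 5.24e-07 in edgeR, on few counts). Plpp2 was lower by -2.07 and the ceramidase gene Acer3 by -1.17, and Sgpp1, an S1P phosphatase, was higher by 0.71. Of the G proteins and regulators downstream of or above S1P receptors, 3 of 16 were higher and 3 lower, with a median of 0.33. Gnaq was higher by 1.39, Foxo1 by 1.09 and Rgs10 by 0.94, and Rgs2 was lower by -1.05, Arrb2 by -0.85 and Gnai3 by -0.68. Klf2, which drives S1pr1 in lymphocytes, had a log2 fold change of 0.59 (adjusted p = 0.34, edgeR), and Cd69, whose product takes S1pr1 off the surface, of 0.54 (adjusted p = 0.135, edgeR).

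Of 8 tested counter-receptors, 2 were higher and 1 lower in pDCs, with a median of 0.01. Cdh1 (E-cadherin) rose from 9.99 to 93.8 CPM and Jaml from 70.3 to 241 CPM, while Fn1 (fibronectin, bound by alpha4beta1) fell from 68.1 to 5.88 CPM. Of 6 chemokine receptors of marrow retention and homing, 2 were higher, 3 lower and 1 not called, with a median of -0.92. Ccr9, on which pDCs were gated, rose by 3.82 on the log2 scale and Cxcr3 by 2.86, and Ccr2 fell by 1.85, Cx3cr1 by 1.61 and Cxcr4 by 1.54. Cxcr4, whose ligand holds cells in the marrow, stood at 41.8, 32.2 and 27.0 CPM in pre-cDCs and at 12.8, 10.1 and 11.7 CPM in pDCs. In lo-hi against lo-lo cells, where 2.33% of all genes were higher and 2.83% lower, the counts of these lists were 2 of 14 higher and 1 lower for selectins, 1 of 13 lower for integrins, 1 of 21 lower for activation, 2 of 12 lower for S1P enzymes and receptors, 1 of 16 higher for S1P signalling, 2 of 8 higher for counter-receptors, and 2 of 6 higher with 1 lower for chemokine receptors.

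**Figure D5:**
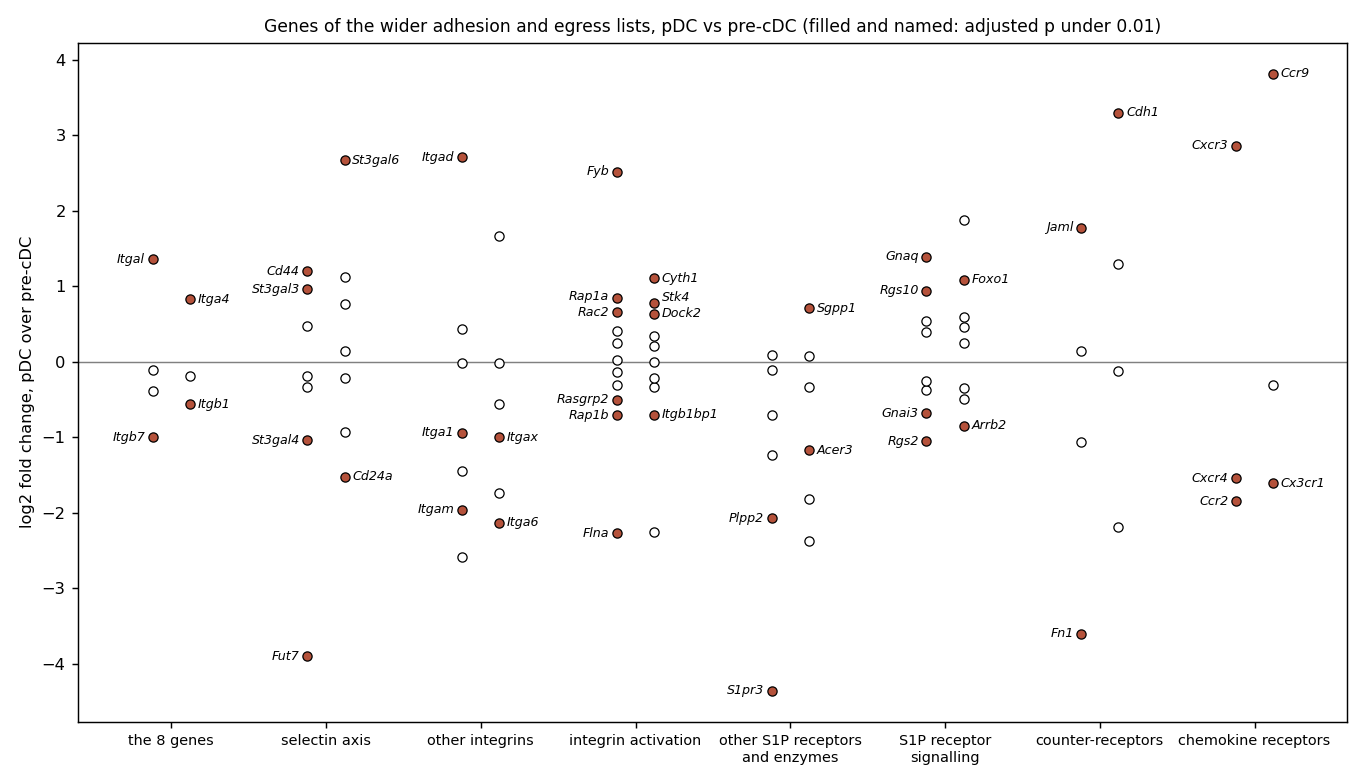
Log2 fold change of pDC over pre-cDC for the tested genes of each list, from edgeR; filled, named points passed the adjusted p cutoff of 0.01 and open points did not. Within every list but the S1P receptors and enzymes, counter-receptors and other integrins, at least 2 genes passed in each direction; Fut7 (-3.90) and S1pr3 (-4.36) are the lowest points.

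Across the 12 libraries, which share the 4 populations and 3 replicate numbers, Itgb1 and Itgb7 had a Pearson r of 0.83 on log2 CPM, Itga4 and Itgal 0.74, and Selplg and Itga4 -0.89. The last pair also ran in opposite directions inside populations. In pDC replicates 1, 2 and 3, Selplg gave 907, 660 and 617 CPM and Itga4 71.2, 104 and 120 CPM. Total counts there were 5995971, 3277565 and 2319600. The lo-lo libraries followed the same pattern with depth, and the pre-cDC and lo-hi libraries only in part. The part of depth in this correlation was not tested. Among the 7823 genes with a mean of at least 10 CPM, the pattern most like that of Itgal was Tnip1 (r = 0.989), followed by Pir (0.988) and Rnf122 (0.986). For Itgb7 it was Cst3 (0.985), Gsto1 (0.976) and Csf2ra (0.972), and for Itgb2 it was Vsir (0.967), Aph1c (0.941) and Cd52 (0.940). Itgb1 was most like Ltbr (0.952), Stk10 (0.948) and Lrrfip2 (0.940), and Itga4 like Ndor1 (0.956), Smap2 (0.949) and Ercc4 (0.947). Selplg was followed by Clns1a (0.987), Mdh1 (0.985) and Hnrnpk (0.979), and S1pr4 by Rad1 (0.913), Smim20 (0.912) and Ube2g2 (0.910).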

How the data were processed

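RNA of 4 populations sorted from mouse BM was sequenced with a modified bulk SCRB-seq protocol. The deposited values are counts per Ensembl gene and well, made by the authors with zUMIs and STAR 2.5.2b on mm10 (GRCm38); whether they are reads or UMIs, and whether strand was used, was not given in the sources used here. Of 21754 gene IDs, 21410 had a symbol in the annotation. Gene coordinates are GRCm38.

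Wells were grouped by the match to the heat map values, with the deposited labels as an alternative; the members, gene lists and grouping were chosen with earlier results of these data known. After a filter at a mean count of 1 (15293 genes kept, 6461 left out), all were fitted in edgeR 4.0.16 (TMM, robust quasi-likelihood F test) under R 4.3.3 with all 12 libraries in 1 fit, and called at a Benjamini-Hochberg adjusted p under 0.01, the publication's cutoff. DESeq2 1.42.0 was an alternative, with a likelihood ratio test among the populations and Wald tests for the pairs. The publication used an earlier version of DESeq2 with a likelihood ratio test. Ratios used a pseudocount of 0.5 and were called at an adjusted p under 0.05. They were tested by two-sided exact permutation of the one-way F statistic over the 4 populations. The edgeR fit of pDC vs lo-hi and the permutation test were tested on simulated data.

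The named genes were all 8 members, of each list up to 3 genes per direction with the largest called change in pDC vs pre-cDC, the fixed genes Itgax, Cxcr4, Ccr9, Klf2 and Cd69, and the 3 genes most like each member; St3gal4 falls under the rule as the third lower gene of its list. Some genes of the fixed lists are not reported here, and the counts leave them out. The promoter motifs and the ratio of Itgal to Itgb2 were chosen after the values were seen. Alternatives were other normalizations and filters, a cutoff of 0.05, a replicate block, only the 6 libraries compared, and each library left out.

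Replicate numbers were taken to be animals because the figure legend names individual mice and the sex genes divide by number. The methods, however, say that mice were pooled for sorting. If numbers are animals, libraries of the same number are paired, and the main fit and its p-values ignored this pairing. Those p-values measure the spread between libraries as if all were independent. The replicate block is the alternative that takes the pairing into account. Deviations from population means correlated at a mean r of 0.26 over 18 same-number pairs (-0.36 to 0.61) and -0.13 over 36 other pairs. Because the deviations inside a population sum to 0, the second mean largely follows from the first and adds no separate evidence of pairing. Of the 12 libraries, 10 correlated best with a library of their own number.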

Additional observations from a re-analysis of the deposited data

How the results depend on the processing

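The result that decides most is the grouping of the wells. Grouped by the deposited labels, 0 genes passed among the populations and in each of the 6 pairs (3043, 483, 790, 147, 3324, 2108 and 2001 in the main fit), and 0 members passed where 4, 2, 1, 4, 3 and 2 had. Under the labels 15 of the 42 member fold changes turned sign. For lo-lo vs pre-cDC these were Itga4 0.27 and Itgb2 0.14; for lo-hi vs lo-lo Selplg 0.09, Itgb1 0.03, Itgb7 0.19 and S1pr4 0.16; for pDC vs lo-hi Itgal -0.08, Itgb2 -0.57 and Itgb7 -0.45; for pDC vs lo-lo Selplg 0.03, Itgb1 0.01 and Itgb2 -0.50; and for lo-hi vs pre-cDC Itgb2 0.20, Itgb7 0.11 and S1pr4 0.04. The difference of the log2 ratio between pDC and pre-cDC has no test of its own. Under the labels it was -0.18 for Itgb7 to Itgb1 (main -0.43) and -0.27 for Itgb2 to Itgb1 (main 0.34). Neither ratio passed the test among the 4 populations under the labels. The cause of the mismatch was not tested.

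Other settings moved fewer values. Without scaling factors, Itga4 (0.03) and S1pr4 (0.01) turned sign in lo-lo vs pre-cDC, neither called, and the calls of Itgb1 in pDC vs pre-cDC and Itgb2 in pDC vs lo-lo were lost. Without a filter on low counts lo-lo vs pre-cDC called 733 genes and pDC vs lo-hi 344. At a cutoff of 0.05 the counts were 907 (lo-lo vs pre-cDC), 1321 (lo-hi vs lo-lo), 327 (pDC vs lo-hi), 3332 (pDC vs lo-lo) and 3063 (lo-hi vs pre-cDC). The replicate block called 743 genes in lo-lo vs pre-cDC and 346 in pDC vs lo-hi; it left both log2 ratio differences at -0.43 and 0.34 without a call, and changed no member call but that of Itgb2 in lo-hi vs pre-cDC, which it added, as did DESeq2, RLE size factors, edgeR's own filter, no filter and the 0.05 cutoff. With only the 6 libraries compared, lo-hi vs lo-lo called 1191 genes and pDC vs pre-cDC called 2 members, Itga4 and Itgb1 being lost.

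Leaving out 1 library in turn gave 2411 to 3335 genes among the populations, 280 to 662 in lo-lo vs pre-cDC, 381 to 945 in lo-hi vs lo-lo, 65 to 213 in pDC vs lo-hi, 2503 to 3556 in pDC vs pre-cDC, 1568 to 2342 in pDC vs lo-lo and 1380 to 2339 in lo-hi vs pre-cDC. Members called ranged from 2 to 5 in pDC vs pre-cDC and from 1 to 3 in pDC vs lo-lo. Of 504 member fold changes so obtained, 462 kept direction and call, 18 lost the call, 4 gained it and 20 turned sign, 0 of them called in the main fit. Those ranges crossed 0 for Itga4 in lo-lo vs pre-cDC (-0.27 to 0.15), for Selplg in lo-lo vs pre-cDC (-0.29 to 0.09) and pDC vs lo-hi (-0.24 to 0.06), and for S1pr4 in lo-lo vs pre-cDC (-0.25 to 0.05), lo-hi vs lo-lo (-0.13 to 0.12), pDC vs lo-hi (-0.28 to 0.15), pDC vs pre-cDC (-0.40 to 0.07), pDC vs lo-lo (-0.33 to 0.14) and lo-hi vs pre-cDC (-0.27 to 0.03). The ratio differences ranged from -0.55 to -0.26 (Itgb7 to Itgb1), 0.07 to 0.61 (Itgb2 to Itgb1) and -0.05 to 0.99 (S1pr4 to S1pr1). With 3 libraries per population and few counts of S1pr1, small differences could not be resolved.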
